A study of Rattus norvegicus with 32 samples.

Results

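The subunits of voltage-gated calcium and sodium channels were measured in the hippocampus of 32 Sprague-Dawley rats aged 65 days. They are the 40 of 32883 genes in each of the male and female count tables whose symbols name such a subunit. They were picked by name and not by their values, though with earlier results of these data known. Of these, 10 encode the pores of calcium channels (Cacna1a to Cacna1i and Cacna1s), 4 their alpha2delta subunits (Cacna2d1 to Cacna2d4), 4 their beta subunits (Cacnb1 to Cacnb4) and 8 the gamma subunits (Cacng1 to Cacng8), while 10 encode the pores of sodium channels (the Scn genes ending in a) and 4 their beta subunits (the Scn genes ending in b). Bulk RNA was sequenced from 4 rats of each sex in each of 4 diet groups. IS rats came from dams kept on an iron-sufficient diet, and FID rats, formerly iron-deficient, came from dams on an iron-deficient diet through gestation and the early postnatal week, after which the iron-sufficient diet was given to all. ISch and FIDch rats came from dams on the same iron diets that also received choline in late gestation. No group carried an engineered allele. The study's methods describe the male rats, of which each litter gave a single animal, and whether the females came from separate litters is not given.

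Each channel has a large pore-forming subunit that opens on depolarization. Sodium channels carry the upstroke of the action potential and sit densely at the axon initial segment, where their beta subunits set gating and adhesion. Calcium channels of the presynaptic type trigger transmitter release, the L-type channels couple activity to gene expression, and the T-type channels open near rest. Alpha2delta and beta subunits bring the calcium pore to the membrane, whereas most gamma subunits made in the hippocampus act on AMPA-type glutamate receptors.

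The promoters of 3 members on which the comparisons turned are shown as 300 bases, from 250 before to 50 after the RefSeq start in assembly GRCr8, a build other than the Rnor_6.0 that the labels name. Each is written 5′ to 3′ on the strand of its gene, with CG pairs in capitals, because CG content separates the first promoter from the other two: Cacna2d2 on the plus strand at chr8:116950856-116951155, Scn2a on the plus strand at chr3:70710706-70711005, and Scn3a on the minus strand at chr3:70666149-70666448.
Cacna2d2: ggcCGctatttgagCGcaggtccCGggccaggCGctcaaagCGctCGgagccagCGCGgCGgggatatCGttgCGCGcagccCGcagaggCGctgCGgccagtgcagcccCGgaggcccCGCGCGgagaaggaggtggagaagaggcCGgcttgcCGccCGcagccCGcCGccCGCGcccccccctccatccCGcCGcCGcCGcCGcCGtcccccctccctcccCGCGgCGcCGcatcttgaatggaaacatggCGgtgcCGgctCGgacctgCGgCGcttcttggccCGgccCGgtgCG
Scn2a: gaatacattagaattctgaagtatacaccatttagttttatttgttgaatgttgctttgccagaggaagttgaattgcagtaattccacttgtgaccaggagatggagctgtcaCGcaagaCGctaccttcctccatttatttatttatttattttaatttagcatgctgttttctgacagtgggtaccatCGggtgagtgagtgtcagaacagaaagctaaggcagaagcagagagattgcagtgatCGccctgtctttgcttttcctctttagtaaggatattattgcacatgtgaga
Scn3a: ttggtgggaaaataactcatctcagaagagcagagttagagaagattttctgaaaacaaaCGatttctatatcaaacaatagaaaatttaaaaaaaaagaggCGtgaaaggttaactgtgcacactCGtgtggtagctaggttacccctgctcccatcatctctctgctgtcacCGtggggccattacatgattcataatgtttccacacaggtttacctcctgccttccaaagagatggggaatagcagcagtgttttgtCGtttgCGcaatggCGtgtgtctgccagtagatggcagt
The windows held 44 CG pairs for Cacna2d2, 4 for Scn2a and 7 for Scn3a. RefSeq gave 30 windows for 27 members, with a median of 13.5 CG pairs and a range of 2 to 66, against a median of 7 in all 33469 windows. The GC box GGGCGG, searched on both strands, was found in 16 of the 30 (53.3%) and in 33.1% of all windows, and the TATA box TATAAA, also on both strands, in 2 (6.67%) and in 14.2%. These matches are a description of the letters in the windows.

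Sex, sequencing batch and RNA kit cannot be told apart in these rats. The males made up batch I, with RNA from the RNAqueous kit, and the females batch II, with RNA from the RNeasy Midi kit, so each diet comparison was made within a batch. Libraries held 3515806 to 9517503 counts in the males and 18439999 to 26616318 in the females. The members Cacna1f, Cacna1s, Cacna2d4, Cacng1, Scn10a and Scn11a had median counts of 7.5 or fewer in both batches and entered almost no test, while 34 members were tested in most comparisons, 32 in male FIDch against IS and 35 in the female interaction. Levels are given as CPM, counts divided by the library's total and scaled by TMM, over the 16 libraries of a batch. They compare rats within a gene and not genes with each other, since gene lengths were not used.

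Some rats stood apart over the pore subunits as a class. Among 14 pore subunits with a mean of at least 20 counts in the males, IS rat 1 was below the batch median in 14 and lowest in 5, and FID rat 2 was below it in 13 and lowest in 7. ISch rats 1 and 2 and FIDch rat 2, whose libraries carry another form of name in the count table, were all above the median in 13 of the 14. These were the 3 highest males for Cacna1d, Cacna1e, Scn2a and Scn8a. Over the 17 auxiliary subunits they were all above the median in 3, and were the 3 highest in none (0 of 17). In the females, FIDch rat 4 was lowest in 12 of 15 pore subunits and in 5 of 18 auxiliary subunits. The median of its pore subunits lay at -0.42 on the log2 scale relative to the batch medians, and those of male FID rat 2 and IS rat 1 at -0.54 and -0.42. These libraries also stood apart over all genes, in the chi-square per gene between pairs of a group. Pairs with female FIDch rat 4 had 22.39 to 25.24, and the other female FIDch pairs 5.345 to 6.867. Pairs with male FID rat 2 had 7.017 to 7.969 (the others 2.631 to 3.381), and those with male IS rat 1 had 6.25 to 11.01 (2.561 to 4.002). Female ISch rat 1 stood apart over all genes as well, with 11.04 to 14.27 (the others 5.18 to 6.682). It was above the batch median in 11 of 15 pore subunits. Cacna1e, the R-type pore, had the widest span in the males, as the highest over the lowest rat, of the members shown in the map of levels by rat, from 84.2 to 344 CPM. Cacnb3, an auxiliary beta subunit, ran from 189 to 240.4 CPM in the same rats. In bulk tissue, fewer neurons and less channel RNA per neuron cannot be told apart, and why single libraries stood apart over all genes was not tested.

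**Figure D1:**
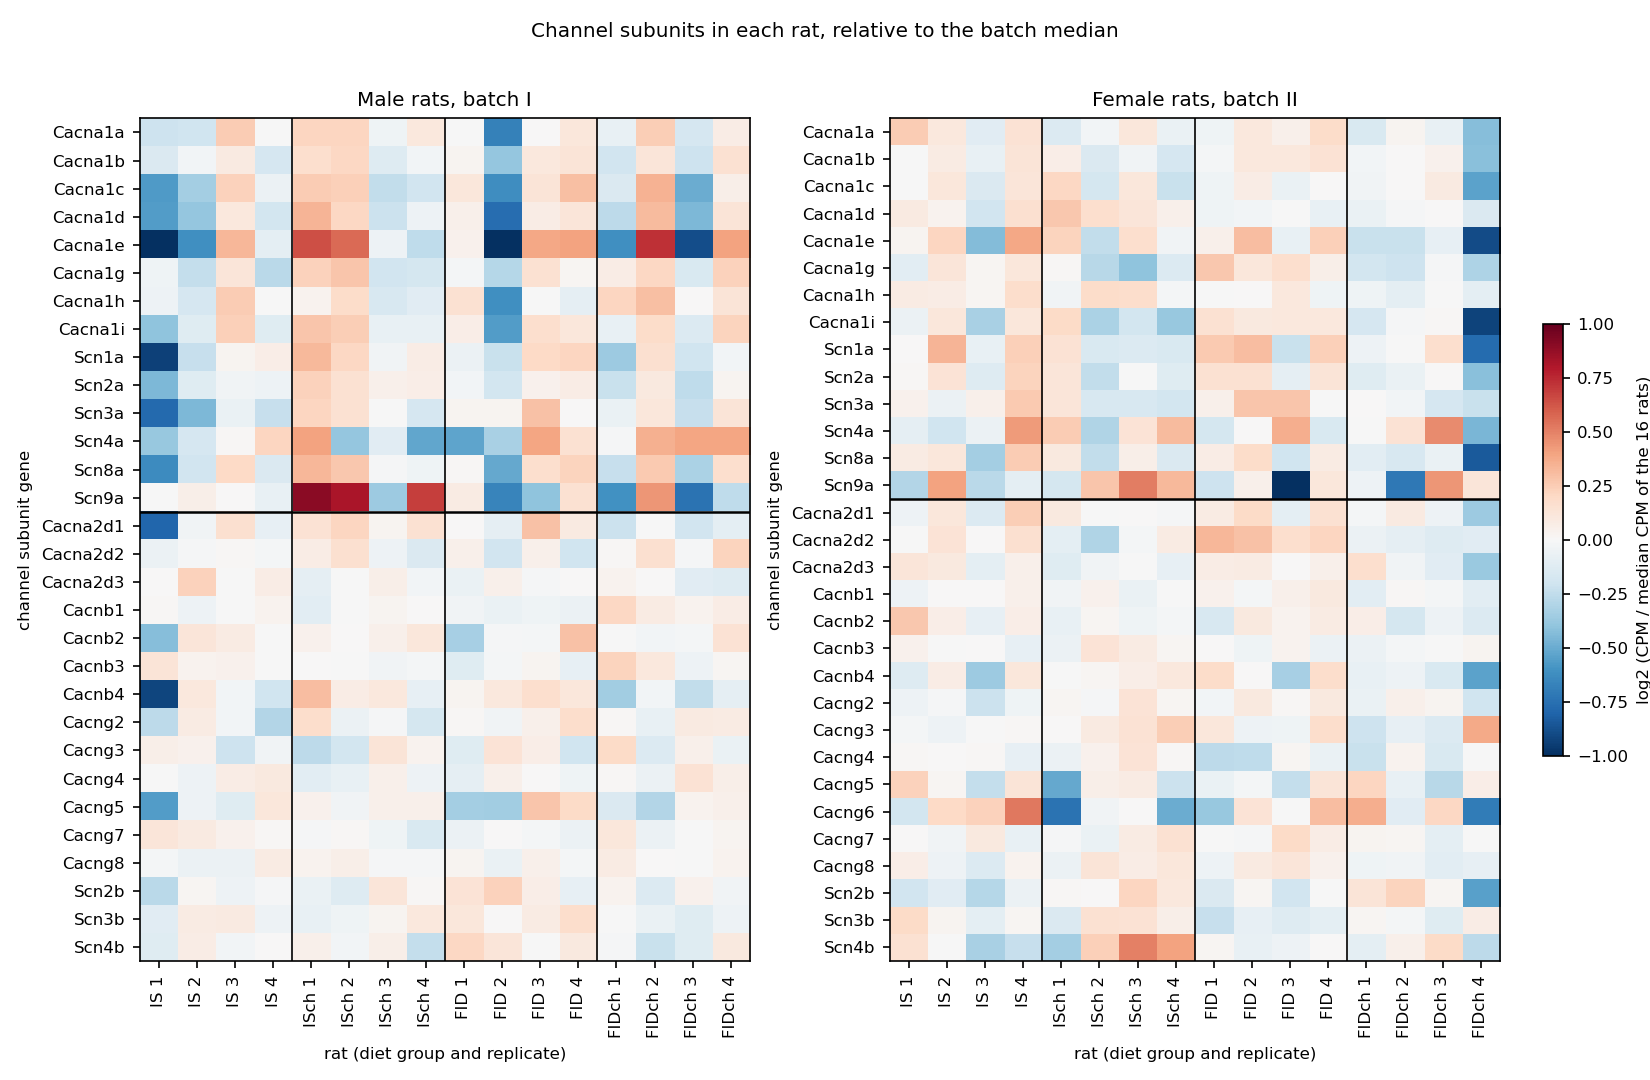
Level of the channel subunits reported here with a mean of at least 20 counts in each rat, as the log2 of its CPM over the median of the 16 rats of the batch, with males at left and females at right, diet groups split by vertical lines, and pore subunits above the horizontal line. Blue columns run down the pore subunits in male IS rat 1, male FID rat 2 and female FIDch rat 4, and red columns in male ISch rats 1 and 2 and FIDch rat 2.

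Calls followed the criterion of the study. A member was called when its log2 fold change was larger than 0.2 in size and its unadjusted p in edgeR's quasi-likelihood test was under 0.05, and Benjamini-Hochberg adjusted values over all genes are given beside it. Between formerly iron-deficient rats and IS controls, few subunits were called, as were few of all genes. In FID against IS, 1 of 34 members was called in the males, where 4.62% of all genes tested were called and 2.34% were called higher, and 0 of 34 in the females, where 6.47% were called. In that female comparison 3 members had an unadjusted p under 0.05, and DESeq2 with the same criterion also called 0. In FIDch against IS, the call count was 1 of 32 in the males (6.12% of all genes, 2.91% higher) and 2 of 34, both lower, in the females (8.98%, 4.82% lower). Single rats moved these small counts. The male FID count became 2 without FID rat 4, 3 without IS rat 2 and 4 without IS rat 3 or FID rat 2, and the female FID count 1 without IS rat 1 or 3 or FID rat 2 or 3 and 2 without IS rat 4. The male FIDch count was 0 without IS rat 1 or FIDch rat 4, 2 without IS rat 4 or FIDch rat 1, 3 without FIDch rat 3 and 4 without IS rat 3. The female FIDch count was 0 without IS rat 4, 1 without IS rat 1 or 2, 4 without FIDch rat 1 or 3 and 6 without IS rat 3.

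Within each batch, members were called more often in ISch against IS and in FIDch against FID than in FID against IS, and so were all genes. In ISch against IS, 6 of 34 members were called higher and 0 lower in the males. Of all genes, 8.06% were called and 4.52% called higher. Among the 34 members, 10 had a negative sign, down to -0.11. In the females 3 of 34 were called, 1 higher and 2 lower, against 10.3% (5.14% higher and 5.15% lower). In FIDch against FID, 3 of 34 members were called lower in the males, against 13% of all genes called (7.24% lower). In the females 6 of 34 were called lower, against 12.7% (7.07% lower). In FIDch against ISch, 5 of 34 were called lower in the males, against 8.12% (5.03% lower). In the females 3 of 34 were called lower, against 4.57% (2.75% lower). The median log2 fold change of ISch against IS in the males was 0.11 over the members and -0.0007 over all genes tested, and that of FIDch against FID in the females was -0.094 over the members and -0.0013 over all genes tested. These comparisons share groups of rats and are not independent of each other. The count of FIDch against FID was 10 in the females without FID rat 3 and 1 in the males without FIDch rat 1. That of FIDch against ISch was 3 in the males without FIDch rat 1 and 1 in the females without ISch rat 3 or 4 or FIDch rat 1 or 4. That of female ISch against IS was 1 without IS rat 4, 6 without IS rat 1 and 7 without ISch rat 1, and that of the males is given with the sodium pores.

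**Figure D2:**
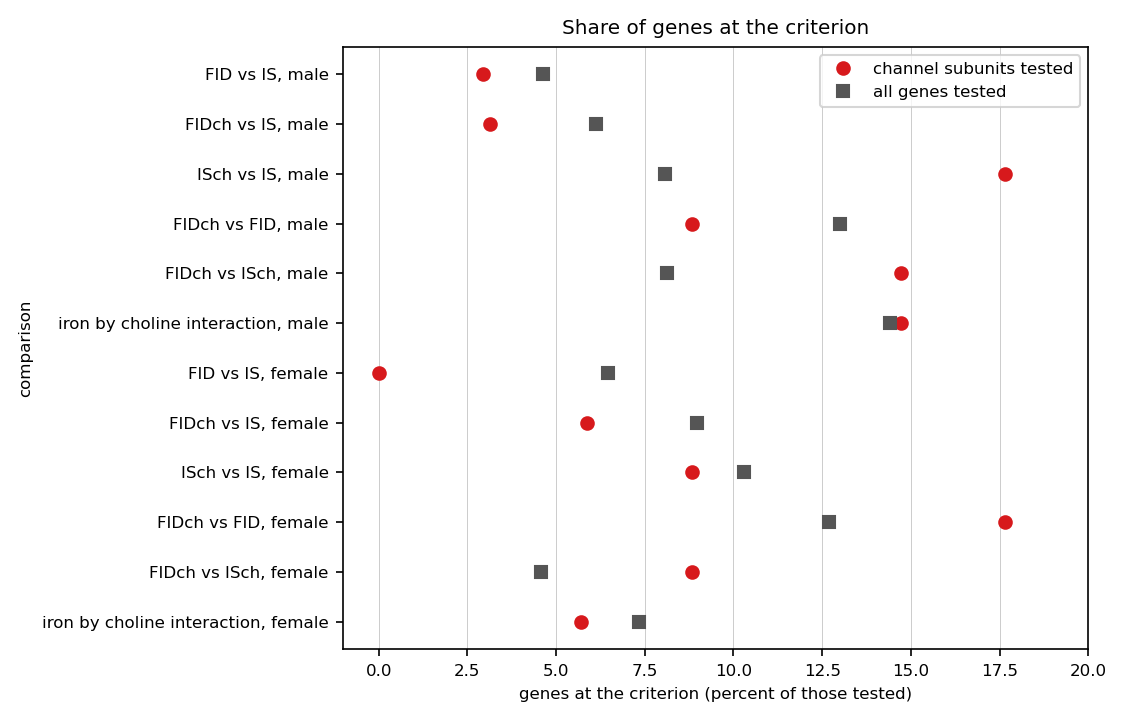
Percent of genes at the criterion in each within-batch comparison, with a circle for the tested channel subunits and a square for all genes tested. The subunits lie farthest to the right of all genes in male ISch against IS, at 6 of 34 against 8.06%. They lie to the left in FID and FIDch against IS of both batches, male FIDch against FID, female ISch against IS and the female interaction.

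Adjusted values under 0.05 were reached by 2 members in the pairwise comparisons within a batch, both in female FIDch against FID, where 2.28% of all genes had one. The other 9 pairwise comparisons and both interactions had 0 members below it in edgeR's quasi-likelihood test, with 1 to 9 members per comparison at an unadjusted p under 0.05. Of all genes, the share with an adjusted p under 0.05 in the males was 0% in FID against IS, 0.131% in FIDch against IS, 0.208% in ISch against IS, 1.28% in FIDch against FID, 0.043% in FIDch against ISch and 0.00699% in the interaction. In the females it was 0.191%, 0.907% and 2.54% for the groups against IS in that order, 0.00689% in FIDch against ISch and 0.00668% in the interaction. DESeq2 placed Cacnb4 in male FIDch against FID, Cacna2d1 in male FIDch against ISch and Scn2b in female ISch against IS below it, and Cacna1e in female FIDch against FID beside the same 2.

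Among the alpha2delta subunits, Cacna2d2 was lower in female FIDch than in female FID. Cacna2d2 (ENSRNOG00000015835) encodes an alpha2delta subunit that raises calcium channels at the membrane and is carried by interneurons and Purkinje cells. In the females it measured 40.6, 44.6, 40.7 and 45.3 CPM in IS, 51.1, 49.7, 45.7 and 47.03 in FID, 38.03, 32.9, 40.03 and 43.02 in ISch, and 39.1, 38.1, 37.1 and 37.7 in FIDch. All 4 FID rats lay above every FIDch rat, and above every IS rat as well. Group means were 37.98 ± 0.821 CPM in FIDch, 48.4 ± 2.47 in FID, 38.5 ± 4.25 in ISch and 42.8 ± 2.52 in IS (SD, n = 4 rats each). Cacna2d2 was not called in female FIDch against ISch, ISch against IS or the interaction. In FIDch against FID the change was log2 fold change -0.35 ± 0.054, adjusted p = 0.0109 by edgeR's quasi-likelihood test. It stayed below an adjusted p of 0.05 in all 15 alternatives, from 9.08e-06 to 0.0468. Against IS, the log2 fold change was 0.18 ± 0.057 in FID, short of the 0.2 of the criterion though the groups did not overlap, and -0.17 ± 0.054 in FIDch, also short of it without overlap.

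Male Cacna2d2 did not show this fall. Its 16 male values were 38.2, 39.6, 40.1 and 39.3 CPM in IS, 41.4, 34.97, 41.4 and 34.8 in FID, 42.1, 44.6, 38.6 and 36.1 in ISch, and 40.1, 44.6, 39.7 and 46.5 in FIDch, and the groups overlapped. The change in male FIDch against FID was 0.15 ± 0.088 (adjusted p = 0.401 by edgeR's quasi-likelihood test). Because the female result was seen first, the difference between the batches in FIDch against FID was added as a test after the data had been seen. It was 0.52 ± 0.10 (male minus female), with an adjusted p of 0.0118 by edgeR's quasi-likelihood test, and it remained below 0.05 in 20 of 21 alternatives, the exception being the replicate block at 0.0604. Of 34 members tested for this difference 5 were called, where 17.7% of all genes were.

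Cacna2d1, which encodes the most widely made alpha2delta subunit and a binding site of gabapentin, fell in the choline-treated formerly iron-deficient males. Its values were 92.01, 156, 178 and 150.4 CPM in IS, 159.7, 149.8, 195 and 169.7 in FID, 176, 185, 162 and 177 in ISch, and 137, 159, 139 and 149 in FIDch. Every FIDch rat lay below every ISch rat, and IS rat 1 was the lowest of the 16. Against ISch the difference was log2 fold change -0.27 ± 0.060, adjusted p = 0.126 by edgeR's quasi-likelihood test, and against FID it was log2 fold change -0.22 ± 0.081, adjusted p = 0.188. The call against FID was lost without FID rat 3, FIDch rat 1 or FIDch rat 3, with a lowest size of -0.14, whereas that against ISch held without each of the 8 rats. With the 4 groups in a joint fit both calls were lost. Female Cacna2d1 measured 157 ± 18.5 CPM in IS, 161 ± 13.97 in FID, 154 ± 5.37 in ISch and 144 ± 18.5 in FIDch (mean ± SD, n = 4) and was called in no female pair. Cacna2d3 was called in none of the 10 pairwise comparisons, with log2 fold changes from -0.13 to 0.0077.

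**Figure D3:**
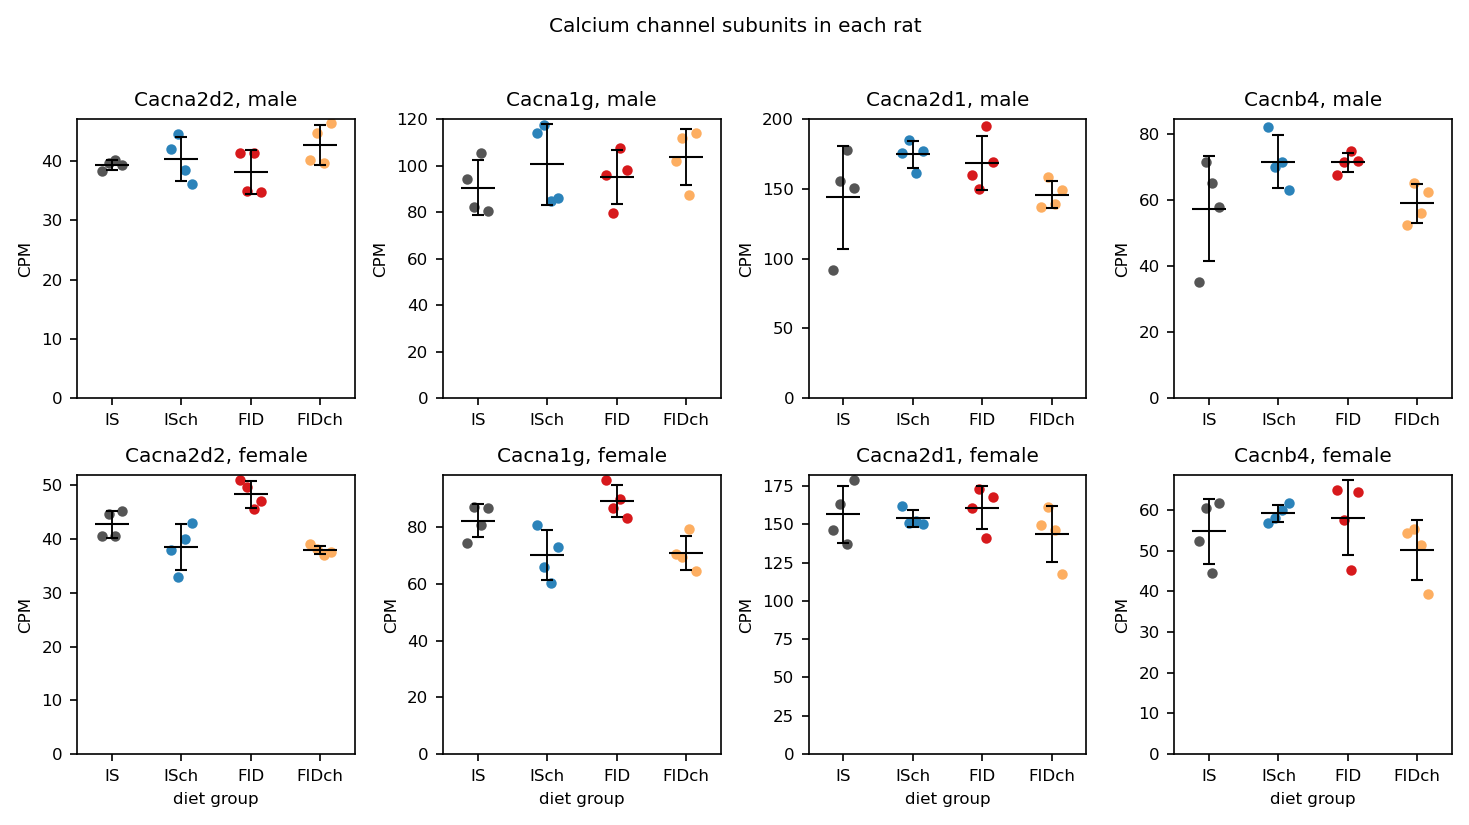
CPM of Cacna2d2, Cacna1g, Cacna2d1 and Cacnb4 in each rat by diet group, males above and females below, with a dot per rat and a bar at the mean with its SD over 4 rats. Female Cacna2d2 is at 45.7 CPM or more in all FID rats and at 39.1 or less in all FIDch rats, while the male groups overlap.

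Of the calcium pores, the T-type Cacna1g (ENSRNOG00000060528), which serves burst firing near rest, was the other gene with an adjusted p under 0.05. Female values were 74.6, 87.3, 80.99 and 86.8 CPM in IS, 96.8, 86.8, 89.9 and 83.5 in FID, 80.9, 66.04, 60.6 and 72.9 in ISch, and 70.6, 69.4, 79.3 and 64.6 in FIDch. All 4 FID rats lay above all FIDch rats, and the ISch and FIDch ranges overlapped. The means were 70.95 ± 6.14 CPM in FIDch and 89.2 ± 5.65 in FID (SD, n = 4). In FIDch against FID the change was log2 fold change -0.33 ± 0.068, adjusted p = 0.0328 by edgeR's quasi-likelihood test. Its call at the criterion held in all 15 alternatives, but the adjusted p ran up to 0.1 and passed 0.05 without any FID rat and without FIDch rat 1 or 2.

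Female Cacna1g was also lower in both choline groups than in IS. The difference was log2 fold change -0.24 ± 0.086, adjusted p = 0.202 in ISch by edgeR's quasi-likelihood test, and log2 fold change -0.22 ± 0.072, adjusted p = 0.234 in FIDch. The call in ISch was lost without IS rat 2 or 4 or ISch rat 2 or 3 (log2 fold changes down to -0.17), and the call in FIDch without IS rat 2 or 4 or FIDch rat 4 (down to -0.18). The male groups measured 90.6 ± 11.7 CPM in IS, 95.3 ± 11.6 in FID, 101 ± 17.5 in ISch and 104 ± 12.2 in FIDch, with no call. Its difference between batches, male minus female, was 0.46 ± 0.13 in FIDch against FID (adjusted p = 0.0588 by edgeR's quasi-likelihood test).

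Cacna1e, the R-type pore found in dendrites and spines, and Cacna1a, the P/Q-type pore of transmitter release, also fell in female FIDch against FID. Cacna1e values in the females were 268, 305, 195 and 344 CPM in IS, 272, 326, 249.8 and 309 in FID, 306, 222, 296 and 257 in ISch, and 225, 225, 248 and 141 in FIDch. No FIDch rat reached the lowest FID rat, and FIDch rat 4 was far below the rest. Its change was log2 fold change -0.47 ± 0.15, adjusted p = 0.134 by edgeR's quasi-likelihood test, and -0.31 without FIDch rat 4, still called. Against ISch it was log2 fold change -0.36 ± 0.16, adjusted p = 0.619, a call lost without ISch rat 1, 3 or 4 or FIDch rat 1, 2 or 4 (as small as -0.22). Male Cacna1e was called nowhere and measured 169 ± 76.04 CPM in IS, 213 ± 84.8 in FID, 252 ± 75.4 in ISch and 216 ± 111 in FIDch.

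Female Cacna1a stood at 279, 253, 216 and 259 CPM in IS, 227, 253, 244 and 266 in FID, 213, 230.2, 253 and 224 in ISch, and 211, 239, 223 and 175 in FIDch. FIDch rat 4 was the lowest female and the other FIDch rats overlapped FID and IS. The difference was log2 fold change -0.23 ± 0.087, adjusted p = 0.2 against FID, by edgeR's quasi-likelihood test, and log2 fold change -0.25 ± 0.099, adjusted p = 0.319 against IS. Without FIDch rat 4 these shrank to -0.14 and -0.17 and neither was called. The call against FID was also lost without FID rat 2 or 4, and that against IS without IS rat 1, 2 or 4 or FIDch rat 1. Male Cacna1a measured 257 ± 40.1 CPM in IS, 243 ± 53.4 in FID, 286 ± 24.1 in ISch and 267 ± 33.6 in FIDch, with no call.

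Cacna1d, an L-type pore that opens at lower voltages, was called once in each batch. The males measured 60.6, 68.4, 96.005 and 78.8 CPM in IS, 92.4, 52.7, 94.1 and 97.2 in FID, 113, 103, 76.7 and 86.04 in ISch, and 74.5, 111, 65.3 and 97.4 in FIDch. ISch rats 1 and 2 and FIDch rat 2, of the other name form, were the 3 highest, and FID rat 2 the lowest. ISch exceeded IS by log2 fold change 0.32 ± 0.14, adjusted p = 0.465 in edgeR's quasi-likelihood test, a call lost without IS rat 1, 2 or 4 or ISch rat 1 or 2 and in a joint fit of the 4 groups. It held in 8 of 16 alternatives. Female values were 79.3, 76.2, 65.2 and 83.01 CPM in IS, 72.4, 73.001, 74.1 and 70.8 in FID, 89.8, 83.5, 80.97 and 76.99 in ISch, and 71.2, 73.99, 74.7 and 67.4 in FIDch. All FIDch rats lay below all ISch rats, by log2 fold change -0.21 ± 0.060, adjusted p = 0.556, and this call was lost without ISch rat 1 or FIDch rat 1 or 4 and with library size alone as the scaling.

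The remaining calcium pores were called in no pairwise comparison. Cacna1b, the N-type release channel, measured 169 ± 13.96 CPM in IS, 174 ± 26.7 in FID, 184 ± 19.98 in ISch and 174 ± 23.4 in FIDch in the males, and 183 ± 11.8 CPM in IS, 189.8 ± 8.92 in FID, 171 ± 13.3 in ISch and 169 ± 23.3 in FIDch in the females (mean ± SD, n = 4). Cacna1c, the main L-type pore, measured 73.3 ± 17.6 CPM in IS, 82.7 ± 20.5 in FID, 83.3 ± 15.4 in ISch and 79.9 ± 19.2 in FIDch in the males, and 91.1 ± 7.75 CPM in IS, 89.2 ± 3.69 in FID, 89.1 ± 13.1 in ISch and 83.7 ± 14.9 in FIDch in the females. The T-type pores Cacna1h and Cacna1i were not called either, Cacna1i having in female FIDch against FID a log2 fold change of -0.35 ± 0.16 (adjusted p = 0.281 by edgeR's quasi-likelihood test). All 8 tested calcium pores had negative signs in female FIDch against FID, with a median of -0.20, where 50.3% of all genes had a negative sign. Without FIDch rat 4, which was lowest in 12 of 15 pore subunits, 6 of 8 were negative and the median was -0.11. Of the calcium pores, 5 of 8 had positive signs in the males, with a median of 0.047.

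**Figure D4:**
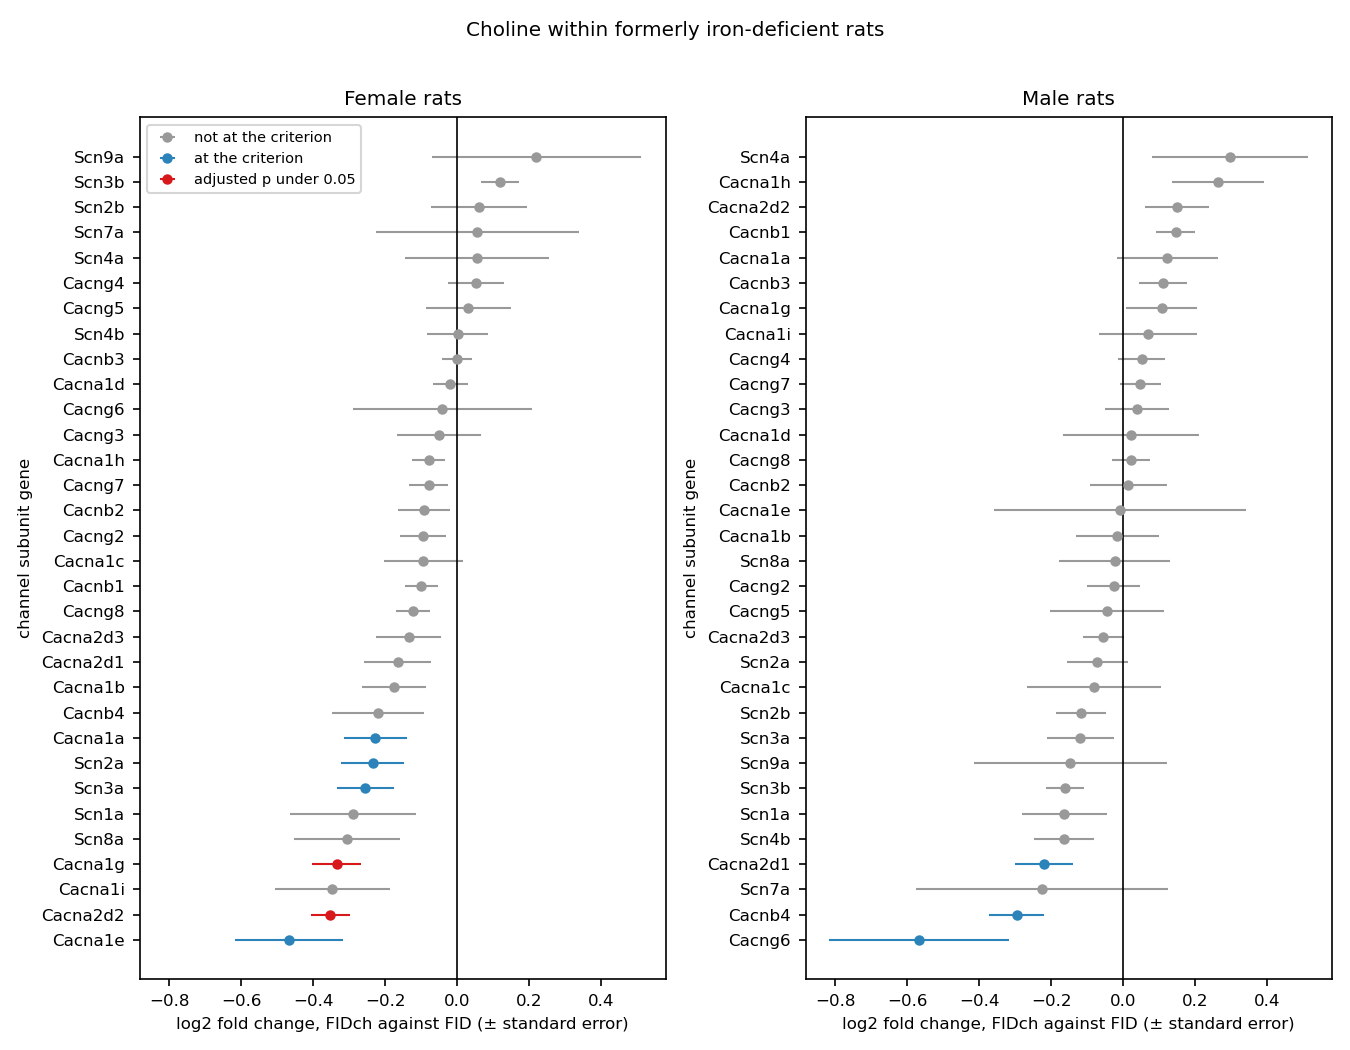
Log2 fold change with its standard error for the tested subunits reported here in FIDch against FID, females at left and males at right, with grey points short of the criterion, blue points at it and red points with an adjusted p under 0.05. Cacna2d2 and Cacna1g are red at -0.35 and -0.33 in the females and grey above 0 in the males.

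Of 8 tested sodium pores, 5 were called higher in male ISch than in IS, where 4.52% of all genes were called higher. In female FIDch against FID 2 were called lower, where 7.07% of all genes were called lower. Without the libraries of the other name form, 0 members were called in male ISch against IS. Scn3a (ENSRNOG00000005007), the pore most abundant before birth, was higher than in IS in each of the other male groups. Its male values were 36.9, 46.4, 60.4 and 53.9 CPM in IS, 64.4, 64.4, 77.4 and 63.4 in FID, 73.5, 70.1, 62.97 and 56.1 in ISch, and 60.2, 68.4, 53.8 and 69.3 in FIDch. All FID rats exceeded all IS rats, while ISch and FIDch each overlapped IS. The differences from IS were log2 fold change 0.45 ± 0.13, adjusted p = 0.786 in FID by edgeR's quasi-likelihood test, log2 fold change 0.41 ± 0.13, adjusted p = 0.367 in ISch, and log2 fold change 0.35 ± 0.13, adjusted p = 0.541 in FIDch. IS rats 1 and 2 were the lowest males, and the FID call held in all 15 alternatives, with log2 fold changes of 0.33 to 0.56 when single rats were left out. The FIDch call was lost without the libraries of the other name form and without IS rat 1 or 2 or FIDch rat 2 or 4 (down to 0.22).

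In the females, Scn3a measured 59.8, 55.5, 60.2 and 69.5 CPM in IS, 59.96, 70.2, 70.03 and 57.7 in FID, 62.997, 51.8, 51.8 and 51.02 in ISch, and 58.1, 56.9, 51.6 and 49.6 in FIDch. FIDch was lower than FID by log2 fold change -0.26 ± 0.079, adjusted p = 0.122 in edgeR's quasi-likelihood test, with overlap, and this call held in all 15 alternatives. FID and IS females did not differ at the criterion (0.072 ± 0.080). The male and female effects on Scn3a differed at the criterion in FID against IS (0.39 ± 0.16, adjusted p = 0.546 by edgeR's quasi-likelihood test), in FIDch against IS (0.52 ± 0.17, 0.169) and in ISch against IS (0.59 ± 0.17, 0.101).

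Scn2a, the pore of the excitatory axon, measured 316, 396, 421 and 415 CPM in IS, 422, 379.9, 445 and 453 in FID, 505, 478, 446 and 450.2 in ISch, and 369, 461, 362 and 439.7 in FIDch in the males. Each ISch rat exceeded each IS rat. The rise was log2 fold change 0.28 ± 0.083, adjusted p = 0.334 by edgeR's quasi-likelihood test, and was called without each rat but IS rat 1 (0.19). FIDch was lower than ISch by log2 fold change -0.21 ± 0.076, adjusted p = 0.249, a call lost without ISch rat 1 or FIDch rat 1 or 3 (as small as -0.16). Female values were 497, 542, 452 and 574 CPM in IS, 547, 548, 463 and 538 in FID, 535, 416, 491 and 453 in ISch, and 453, 470.1, 496 and 368 in FIDch. FIDch was lower than FID by log2 fold change -0.23 ± 0.088, adjusted p = 0.193, and this was lost without FID rat 1, 2 or 4 or FIDch rat 4 (as small as -0.15).

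Scn1a, the pore of fast-spiking interneurons, measured 36.6, 59.9, 71.6 and 73.3 CPM in IS, 67.2, 60.1, 80.4 and 81.3 in FID, 87.6, 80.8, 68.4 and 74.02 in ISch, and 54.4, 78.6, 61.1 and 68.7 in FIDch in the males. It was higher in ISch than in IS by log2 fold change 0.37 ± 0.17, adjusted p = 0.472 in edgeR's quasi-likelihood test, and lower in FIDch than in ISch by log2 fold change -0.27 ± 0.10, adjusted p = 0.268. IS rat 1 was the lowest of the 16, and the former call was lost without IS rat 1 or 2 or ISch rat 1, 2 or 4 (down to 0.19), the latter without ISch rat 1 or FIDch rat 1 or 3 (down to -0.18) and with the 4 groups in a joint fit. They held in 9 and 12 of 16 alternatives. The female groups measured 81.3 ± 10.97 CPM in IS, 82.8 ± 13.1 in FID, 70.4 ± 7.42 in ISch and 67.99 ± 17.1 in FIDch (mean ± SD, n = 4), with no call.

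Scn8a, the main pore of the adult axon initial segment, measured 235, 319, 419 and 331 CPM in IS, 367, 256, 411 and 426 in FID, 458, 439, 362 and 354 in ISch, and 310.1, 437, 293 and 411 in FIDch in the males. ISch exceeded IS by log2 fold change 0.31 ± 0.14, adjusted p = 0.472 in edgeR's quasi-likelihood test, with overlap, and the call was lost without IS rat 1, 2 or 4 or ISch rat 1 or 2 (down to 0.18) and with the 4 groups in a joint fit, and held in 8 of 16 alternatives. In the females Scn8a measured 413 ± 68.9 CPM in IS, 413 ± 44.9 in FID, 387 ± 44.1 in ISch and 335 ± 74.9 in FIDch, with no call. Scn9a, better known from pain-sensing neurons, was sparse, at 24 to 77 counts per male library. Its CPM values were 4.97, 5.18, 4.997 and 4.73 CPM in IS, 5.26, 3.15, 3.76 and 5.52 in FID, 9.31, 8.79, 3.88 and 8.05 in ISch, and 3.28, 6.78, 2.98 and 4.17 in FIDch. ISch rat 3 did not share the higher level of the other ISch rats. Against IS the rise was log2 fold change 0.60 ± 0.23, adjusted p = 0.447, lost without IS rat 4 or ISch rat 1, 2 or 4, and FIDch was lower than ISch by log2 fold change -0.93 ± 0.28, adjusted p = 0.194, which held in all 16 alternatives.

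Without the 3 libraries of the other name form, 0 of 34 members were called in male ISch against IS, where 4.81% of all genes were, and the median over the members fell from 0.11 to 0.038. The 6 log2 fold changes were then 0.27 for Scn3a, 0.20 for Scn2a, 0.24 for Scn1a, 0.13 for Scn8a, 0.28 for Scn9a and 0.098 for Cacna1d, all of the same sign as before, with 2 ISch rats left. Leaving out single rats gave 2 calls without IS rat 1, ISch rat 1 or ISch rat 2, 3 without IS rat 4 and 11 without IS rat 3. The part of the name form in the ISch result was not tested apart from the diet. In FIDch against ISch the same step raised the count from 5 to 8, of which 3 were higher.

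**Figure D5:**
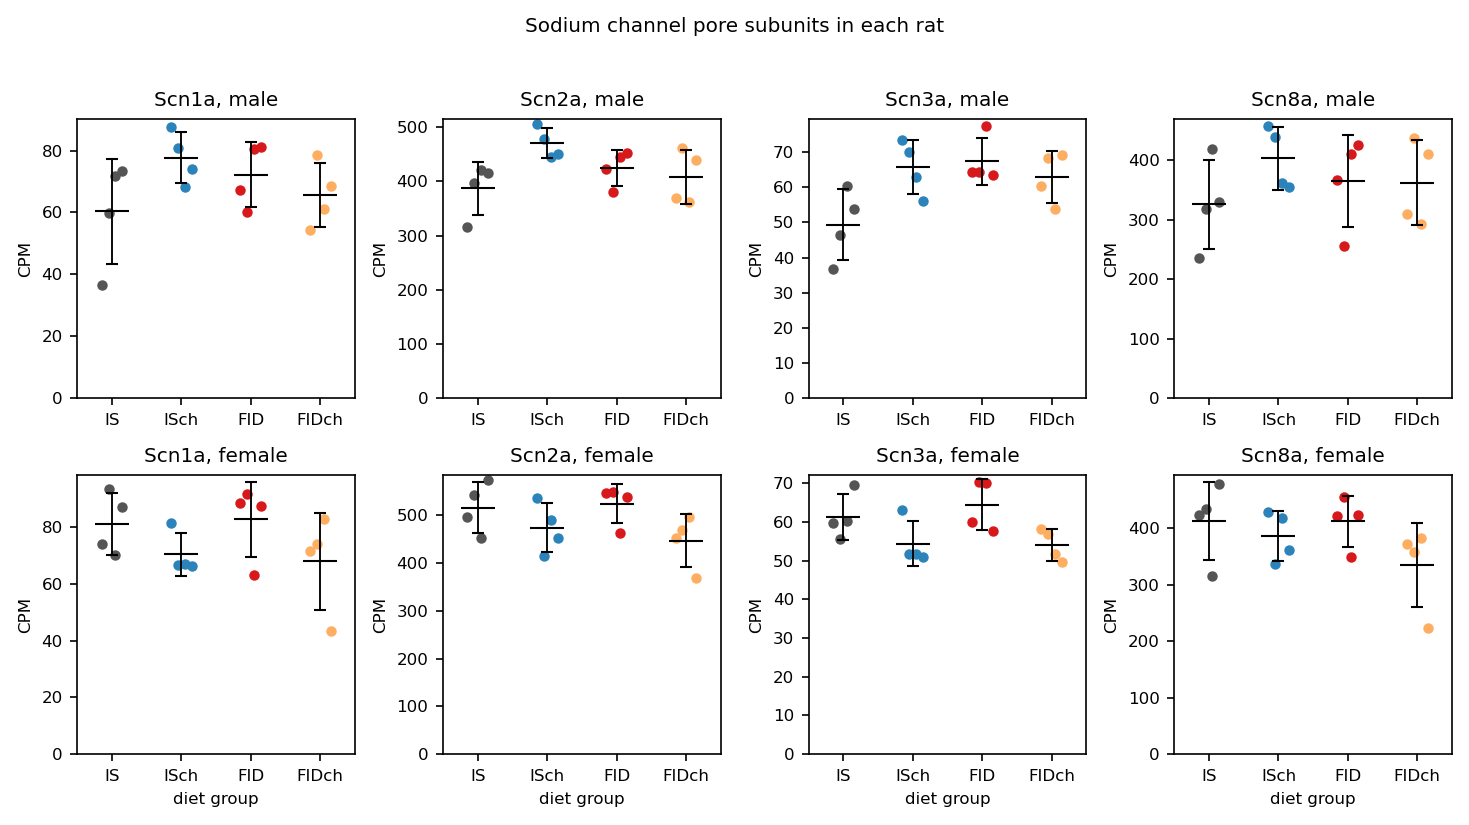
CPM of Scn1a, Scn2a, Scn3a and Scn8a in each rat by diet group, males above and females below, with a dot per rat in replicate order and a bar at the mean with its SD over 4 rats. In the males ISch lies above IS for Scn2a without overlap and FID above IS for Scn3a without overlap, and in the females FIDch rat 4 is the lowest dot for Scn1a, Scn2a and Scn8a.

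The 5 sodium pores Scn3a, Scn2a, Scn1a, Scn9a and Scn7a lie in a run on rat chromosome 3 in RefSeq GRCr8, with the protein-coding genes Csrnp3, Galnt3 and Ttc21b among them. In male ISch against IS, Csrnp3, a transcription factor made in neurons, changed by 0.56 ± 0.23 (adjusted p = 0.455 by edgeR's quasi-likelihood test). Galnt3 and Ttc21b had 0.088 ± 0.22 and 0.054 ± 0.13. In female FIDch against FID the same neighbours had -0.39 ± 0.16, 0.27 ± 0.15 and 0.27 ± 0.11 in that order. The muscle pore Scn4a and the glial Scn7a, both at low counts, were called in no pairwise comparison.

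Of the calcium beta subunits, Cacnb4, whose loss causes epilepsy and ataxia in mice, fell with choline in formerly iron-deficient males. Its values were 35.1, 71.4, 65.3 and 57.9 CPM in IS, 67.7, 71.4, 74.8 and 71.8 in FID, 82.2, 69.9, 71.5 and 62.9 in ISch, and 52.4, 65.3, 55.9 and 62.4 in FIDch. All FIDch rats lay below all FID rats, and IS rat 1 was the lowest male by far. FIDch differed from FID by log2 fold change -0.30 ± 0.076, adjusted p = 0.0808 and from ISch by log2 fold change -0.30 ± 0.087, adjusted p = 0.189 in edgeR's quasi-likelihood test, each call holding without any single rat and lost only with the 4 groups in a joint fit. In the females Cacnb4 measured 52.2, 60.4, 44.5 and 61.8 CPM in IS, 64.99, 57.5, 45.3 and 64.4 in FID, 56.9, 57.99, 59.97 and 61.6 in ISch, and 54.2, 55.3, 51.3 and 39.4 in FIDch. FIDch lay below ISch without overlap, by log2 fold change -0.24 ± 0.096, adjusted p = 0.602, and the call was lost without ISch rat 3 or 4 or FIDch rat 4 and in the joint fit.

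Cacnb1 was called in no pairwise comparison, yet its effects in the batches differed in FIDch against FID. The change was 0.15 ± 0.055 in the males (adjusted p = 0.194) and -0.100 ± 0.046 in the females (adjusted p = 0.284), and the difference was 0.27 ± 0.069 (adjusted p = 0.0457 by edgeR's quasi-likelihood test). The male values were 168, 164, 167 and 165 CPM in FID and 199, 182, 176 and 181 in FIDch, and the female values 177, 170.4, 179 and 185 in FID and 161, 174, 170.1 and 161 in FIDch. The adjusted p of the difference was under 0.05 in 6 of 21 alternatives and reached 0.128, passing 0.05 without any of the 8 FID rats, without male FIDch rat 1 or 4 and without female FIDch rat 1 or 2. Cacnb1 overlaps Rpl19, a ribosomal protein gene, in RefSeq GRCr8, and the counting strand is not given in the sources used here. Cacnb2 and Cacnb3 were called nowhere.

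The gamma subunits changed little. Cacng6, a gamma subunit of muscle calcium channels, was sparse, with 6 to 21 counts per male and 24 to 67 per female library. It was lower in male FIDch, at 1.26, 1.696, 1.33 and 1.19 CPM, than in male FID, at 1.94, 2.21, 1.76 and 1.92, without overlap, by log2 fold change -0.57 ± 0.25, adjusted p = 0.276 in edgeR's quasi-likelihood test. In 12 of 16 alternatives this call was lost, among them 6 of the 8 in which a rat was left out, all but FID rat 3 and FIDch rat 2. It was also lower in female ISch, at 1.17, 1.904, 1.96 and 1.38 CPM, than in female IS, at 1.72, 2.24, 2.29 and 2.81, by log2 fold change -0.51 ± 0.23, adjusted p = 0.3, a call lost in 8 of 15 alternatives, among them DESeq2 and leaving out IS rat 2, 3 or 4 or ISch rat 1 or 4. The AMPA receptor partners Cacng2, Cacng3, Cacng4, Cacng5, Cacng7 and Cacng8 were called in no pairwise comparison.

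Of the sodium beta subunits, Scn2b, a cell adhesion molecule joined to the pore by a disulfide bond, rose in the female ISch rats. Its female values were 121, 127, 113 and 132 CPM in IS, 124, 139, 120.4 and 137 in FID, 139, 138, 159.7 and 148 in ISch, and 150.5, 161, 139 and 94.2 in FIDch. Every ISch rat exceeded every IS rat. The rise was log2 fold change 0.24 ± 0.061, adjusted p = 0.0695 in edgeR's quasi-likelihood test and was called in all 15 alternatives, with an adjusted p of 0.00849 to 0.312. In the males it measured 121 ± 10.4 CPM in IS, 136 ± 12.04 in FID, 126 ± 9.51 in ISch and 126 ± 7.01 in FIDch (mean ± SD, n = 4), with no call. In female FIDch against IS, Scn2b had 0.15 ± 0.14 (adjusted p = 0.69 by edgeR's quasi-likelihood test), and 0.28 without FIDch rat 4 (adjusted p = 0.0463). Scn3b and Scn4b were called in no pairwise comparison with all rats. Scn4b had 0.32 ± 0.16 in female ISch against IS (adjusted p = 0.346 by edgeR's quasi-likelihood test), and 0.47 without ISch rat 1 (adjusted p = 0.0264).

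The interaction asks whether choline acted differently after iron deficiency than in iron-sufficient rats, as (FIDch minus FID) minus (ISch minus IS) on the log2 scale. In the males 5 of 34 members were called, all lower, where 14.4% of all genes were called and 7.59% were lower. They were Cacnb4 (-0.61 ± 0.20), Scn3a (-0.52 ± 0.18), Scn2a (-0.34 ± 0.13), Cacna2d1 (-0.50 ± 0.19) and Scn1a (-0.53 ± 0.23), with adjusted p from 0.205 to 0.284 in edgeR's quasi-likelihood test. The calls of Cacnb4, Scn3a, Scn2a and Cacna2d1 held in all 23 alternatives. That of Scn1a held in 15 of 23 and was lost without the libraries of the other name form and without IS rat 1, ISch rat 1 or 2, FID rat 3 or 4, or FIDch rat 1 or 3. The count was 8 without FID rat 2.

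In the females 2 of 35 were called, both lower, against 7.33% of all genes (4.16% lower). Both encode partners of AMPA receptors, Cacng8, the main one of the hippocampus (-0.21 ± 0.075, adjusted p = 0.442 by edgeR's quasi-likelihood test), and Cacng2, or stargazin (-0.21 ± 0.085, 0.478). Cacng8 measured 141, 129.9, 123 and 138 CPM in IS, 130.3, 144, 147 and 139 in FID, 129, 147, 142 and 146 in ISch, and 131, 132, 125 and 128 in FIDch. Cacng2 measured 56.3, 57.9, 50.3 and 56.6 CPM in IS, 57.5, 62.6, 58.97 and 62.5 in FID, 59.2, 57.9, 64.4 and 59.4 in ISch, and 55.9, 60.6, 59.5 and 50.8 in FIDch. In both genes the 4 groups overlapped. The calls held in 14 of 22 alternatives for Cacng8 and in 16 of 22 for Cacng2. The count became 0 without IS rat 3 or FID rat 2, 1 without IS rat 2, ISch rat 3 or 4, FID rat 4 or FIDch rat 3, 4 without ISch rat 1 and 5 without IS rat 4.

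The difference between the batches was also tested for each group against IS, as the male minus the female effect. In FID against IS 4 of 34 members were called, where 7.64% of all genes were. Beside Scn3a, they included Scn3b (0.27 ± 0.086) and Cacna2d2 (-0.21 ± 0.099). Scn3b, a sodium beta subunit, had 0.086 ± 0.062 in the males and -0.17 ± 0.056 in the females. The calls held in 21 of 21 alternatives for Scn3b, 15 for Scn3a and 11 for Cacna2d2. The count was 2 without male IS rat 2, female IS rat 3 or female FID rat 1.

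In FIDch against IS the batches differed for 4 of 34, where 12.9% of all genes were called. Beside Scn3a they were Cacna1g (0.40 ± 0.13), Cacna1h (0.29 ± 0.11) and Cacna2d2 (0.28 ± 0.091). The count was 7 without male IS rat 3, male FIDch rat 3 or female IS rat 3. In ISch against IS it was 5 of 34 against 14.2%, with Scn2a (0.41 ± 0.13), Scn1a (0.59 ± 0.22), Cacna1a (0.29 ± 0.14) and Cacna1g (0.39 ± 0.16) beside Scn3a. Those of Cacna1a and Cacna1g held in only 6 and 13 of 21 alternatives. This count fell to 3 without male IS rat 4, male ISch rat 1 or 2, female IS rat 2 or 4 or female ISch rat 2, and rose to 8 without male ISch rat 4, 9 without female ISch rat 1, 10 without male ISch rat 3 and 11 without male or female IS rat 3. The lowest adjusted p of a member in these 3 tests was 0.101, for Scn3a in ISch against IS, in edgeR's quasi-likelihood test. All genes had an adjusted p under 0.05 in 0.0396%, 0.362% and 1.28% of cases in the 3 tests in that order, and in 2.88% in the added one. In the added test of FIDch against FID the calls beside Cacna2d2, Cacna1g and Cacnb1 were Cacna1h (0.36 ± 0.15) and Scn3b (-0.26 ± 0.073).

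Proteins that work beside the channels were counted by lists chosen for their role. Their genes are named only for female FIDch against FID and male ISch against IS. In female FIDch against FID, 3 of 14 partners of sodium channels and the axon initial segment were called lower and 0 higher. Of all genes, 12.7% were called and 7.07% called lower. The median was -0.075 over the list and -0.0013 over all genes tested. The largest change of the 3 was that of Fgf11, a fibroblast growth factor homologue that binds the sodium pore (log2 fold change -0.47 ± 0.060, adjusted p = 0.00342 by edgeR's quasi-likelihood test). Sptbn4, the spectrin of the initial segment (log2 fold change -0.21 ± 0.057, adjusted p = 0.0888), and Cntn1, a contactin (log2 fold change -0.21 ± 0.073, adjusted p = 0.163), were the others. Of 20 tested partners of calcium channels 5 were called lower and 0 higher, with a median of -0.057. They were led by Stac2, an adaptor that slows inactivation of L-type channels (log2 fold change -0.63 ± 0.12, adjusted p = 0.0295 by edgeR's quasi-likelihood test). Rims1, which ties calcium channels to the release site (log2 fold change -0.35 ± 0.10, adjusted p = 0.113), and the syntaxin Stx1a (log2 fold change -0.22 ± 0.068, adjusted p = 0.12) were next.

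In male ISch against IS, 2 of 14 sodium channel partners were called higher and 0 lower. Of all genes, 8.06% were called and 4.52% called higher. The 2 were the ankyrins Ank2 (log2 fold change 0.31 ± 0.12, adjusted p = 0.452 by edgeR's quasi-likelihood test) and Ank3 (log2 fold change 0.24 ± 0.10, adjusted p = 0.463). Of the calcium channel partners, 1 of 19 was called higher and 1 lower. Of 5 tested genes of the leak channel complex and endosomal channels, 2 were called higher. They were Unc80 (log2 fold change 0.50 ± 0.19, adjusted p = 0.428 by edgeR's quasi-likelihood test) and Nalcn (log2 fold change 0.21 ± 0.089, adjusted p = 0.463), of the sodium leak channel. The AMPA receptor core and its other auxiliary subunits had 1 of 8 higher in that comparison, and 0 of 8 called in female FIDch against FID.

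Markers of hippocampal neurons were at high levels in every library, with summed levels of the 7 excitatory neuron markers from 2737.5 to 3162 CPM per rat. Choroid plexus markers had group medians of 3.10 to 14.2 CPM and summed to 398 CPM in male FID rat 4, mostly from Ttr. Blood, muscle and choroid lists had 0 to 1 member called in female FIDch against FID. In that comparison 12.7% of all genes were called and 7.07% called lower. Some markers of the thalamus, next to the hippocampus, were called lower, and some of hippocampal fields higher. The 5 thalamus markers summed to 50.5 to 57.7 CPM in FID and 39.9 to 45.7 in FIDch, without overlap. Of the 5, 2 were called lower, among them Slc17a6 (log2 fold change -0.71 ± 0.12, adjusted p = 0.0145 by edgeR's quasi-likelihood test). Interneuron markers had 2 of 8 called lower and summed to 911 to 1014 CPM in FID and 897 to 1042 in FIDch.

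The 13 hippocampal field markers summed to 1599 to 1719 CPM in female FID and 1439 to 1889 in female FIDch, with overlap. Over the 11 tested in this comparison the median log2 fold change was 0.019, against -0.0013 over all genes tested. Of these field markers 3 of 11 were called higher and 0 lower, where 12.7% of all genes were called and 7.07% called lower. They were the granule cell genes Prox1 (log2 fold change 0.39 ± 0.052, adjusted p = 0.00559 by edgeR's quasi-likelihood test) and Dsp (log2 fold change 2.95 ± 0.19, adjusted p = 4.33e-05) and Pcp4, a calmodulin-binding peptide gene (log2 fold change 0.26 ± 0.047, adjusted p = 0.0217). Dsp measured 1.704, 1.83, 1.37 and 1.85 CPM in female FID and 10.05, 10.9, 16.1 and 15.6 in female FIDch. It was also low, at 1.57, 1.07 and 2.26 CPM, in the 3 male libraries of the other name form, and 3.05 to 11.4 CPM in the other males. Of the other lists in female FIDch against FID, striatum (6 genes), endothelial and mural (6) and oligodendrocyte precursor (5) markers each had 2 called lower and 0 higher. Microglia (7) had 1 lower, astrocytes (8) 2 higher and 1 lower, oligodendrocytes (8) 1 higher, and excitatory neurons (7) 1 each way. The part of these markers in the channel results was not tested.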

How the data were processed

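RNA of the rat hippocampus was sequenced in 32 libraries. Trimmed reads were aligned by the authors with HISAT2 and assigned to genes by featureCounts, and 1 table of raw counts was deposited for each batch. The submitters' processing notes name Rnor_6.0 as the build. The counting strand and the treatment of reads that map to several places are not given in the sources used here, and 25 of the 40 members overlap another RefSeq entry, 7 of them a protein-coding gene. The counts were used as deposited, with 0 columns of no sample.

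Members were found by symbol in both tables, and 2 of them enter the counts but are not reported here by name or value. Each pair of groups was fitted alone within a batch with edgeR 4.0.16 in R 4.3.3 (TMM, filterByExpr, glmQLFit and glmQLFTest) on all genes that passed the filter, with Benjamini-Hochberg adjustment over them. Interactions used the 16 libraries of a batch and differences between batches the 16 libraries of the same diet groups in both, and that of FIDch against FID was added after the data had been seen. Calls needed an absolute log2 fold change above 0.2 and an unadjusted p under 0.05. Errors are standard errors for log2 fold changes and SDs for CPM. Every rat's value was given for members called in a comparison (the 6 with the smallest p where more were), and group levels for 9 pore subunits whatever their tests. Up to 3 called genes with the smallest p were named per partner list in female FIDch against FID and male ISch against IS. Single marker genes and chromosomal neighbours, and members given for a difference between batches or an interaction, were partly chosen after their values were seen.

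The members and lists were chosen with earlier results of these data known, and no list was tested as a set. Alternatives were DESeq2 1.42.0, other scalings and filters, a replicate block, a joint fit, and leaving out libraries. Libraries of a group differed by more than counting noise, with a chi-square per gene of 2.02 to 25.2 over 48 pairs. Each replicate of the labels was used as a rat, though this measure cannot tell separate rats from separate preparations. The fits were tested on simulated data. For FID against IS in the males, over 13726 genes, the criterion recovered 83.7% of 98 genes simulated with a log2 fold change of 0.5 in size and called 4.57% of the unchanged ones. At the same size it recovered 78% in the female interaction and 64.65% in the difference between batches for ISch against IS. Sizes under 0.5, where many member changes lay, were not simulated. The p-values measure the spread between these rats, and the library totals limit the precision of members with few counts.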

Additional observations from a re-analysis of the deposited data

Results flagged for a closer look

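In FIDch against FID, the male and the female effect differed for 2 members at an adjusted p under 0.05 in edgeR's quasi-likelihood test, a comparison added after the data had been seen, out of 205 member tests of an interaction or a difference between batches. The male minus the female log2 fold change was 0.52 for Cacna2d2 and 0.27 for Cacnb1. Sex, batch and RNA kit cannot be told apart in it.

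Single rats lay apart from the other 3 of their group, by Dixon's test at the 95% level, in 9 of 176 groups of 4 rats over 22 genes, and chance alone flags about 1 in 20 such groups. In female FIDch, rat 4 was low for Cacna1b at 134 CPM (the others 176 to 184) and for Scn8a at 223.5 CPM (359 to 383). Female ISch rat 1 was high for Cacna2d1 at 162 CPM, for Scn1a at 81.5 CPM and for Scn3a at 63.0 CPM. Female FID rat 3 was low for Scn1a at 63.3 CPM and for Scn2a at 463 CPM. Among the males, FID rat 2 was low for Cacna1d at 52.7 CPM (the others 92.4 to 97.2), and FID rat 3 was high for Scn3a at 77.4 CPM (63.4 to 64.4).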

How the results depend on the processing

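Over 55 called member results and 1002 alternatives, 832 kept the direction and the call, 170 kept the direction without the call and 0 reversed. Counts of called members outside 1.5 times the reported count were as follows. At an adjusted p under 0.05 the count was 2 in female FIDch against FID and 0 in each other pair and interaction. Without a filter on low counts it was 2 in male FID against IS, 2 in male FIDch against IS, 5 in female FIDch against IS and 5 in female ISch against IS. With the 4 diet groups in a joint fit it was 2 in male FID against IS, 1 in male FIDch against FID, 2 in male FIDch against ISch and 4 in female FIDch against IS. With library size alone it was 0 in the female interaction. Without the libraries of another name form it was 0 in male ISch against IS and 8 in male FIDch against ISch. The cause was not tested.

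Leaving out single rats gave, in the males, 1 to 4 calls in FID against IS, 0 to 4 in FIDch against IS, 2 to 11 in ISch against IS, 1 to 3 in FIDch against FID, 3 to 6 in FIDch against ISch and 4 to 8 in the interaction. In the females the ranges were 0 to 2, 0 to 6, 1 to 7, 4 to 10, 1 to 3 and 0 to 5 in the same order. The differences between batches gave 2 to 6 in FID against IS, 4 to 7 in FIDch against IS, 3 to 11 in ISch against IS and 4 to 7 in FIDch against FID.

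Replicate numbers did not pair the rats. Same-numbered libraries correlated at -0.27 to 0.30 in the males and -0.24 to 0.27 in the females, with 7 and 2 of 16 libraries closest to their own number. With the replicate block, male FID against IS had 4 calls against 1, and female FIDch against FID had 8 against 6, and every other count stayed within 1.5 times. The male ISch against IS calls of Scn8a, Cacna1d and Scn1a were lost with the block, as were both of Cacng6 and, in the differences between batches, Cacna2d2 in FID against IS and Cacna1a in ISch against IS.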
